A study of Mus musculus with 4 samples.

Results

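The genes described here encode RNA-binding proteins that store and silence maternal messenger RNA in the mouse oocyte. The 10 genes were chosen by name, with earlier results of these data known: Ybx2, Zar1, Zar1l, Cpeb1, Ddx6, Lsm14a, Lsm14b, Eif4enif1, Patl2 and Marf1. The lists of other genes below were chosen in the same way. Shares within the members and lists may therefore not be independent of the data. The 10 members are among the 55453 genes in the deposited table, and all 10 had enough counts to be among the 15868 genes tested. The RNA came from oocytes at the germinal vesicle stage, taken directly from the ovary, in 2 control libraries labelled WT and 2 libraries labelled Parp12 knockdown. The labels state neither mouse strain nor age, nor how the knockdown was made, nor whether oocytes were pooled. The comparison asks how the messages of oocytes with reduced Parp12, a gene of the family of ADP-ribose transferases, differ from those of control oocytes.

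A fully grown oocyte stops transcription and lives on messages it made earlier, many of them kept silent until maturation. In this store a Y-box protein coats the messages, a repressor complex around the helicase DDX6 and the eIF4E-binding protein 4E-T holds their caps, and CPEB1 reads a U-rich element near their 3′ ends. Release of this control, by phosphorylation and lengthening of the poly(A) tail, accompanies the resumption of meiosis.

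The element that CPEB1 reads and the poly(A) signal lie at the 3′ ends of messages, and the RNA was selected by its poly(A) tail, so the ends of 6 members are printed. In these 30-nucleotide stretches (GENCODE release M21, mm10, coding strand, 5′ to 3′, with T for U) the capitals mark the element (TTTTAT or TTTTAAT) and the poly(A) signal (AATAAA or ATTAAA). Where they overlap, as in the TTTTAATAAA of Lsm14a, both are in capitals.
Ybx2, chr11:69941532-69941561, plus strand: cctctgaagccaTTTTATgaactgtcatgt
Lsm14a, chr7:34344661-34344690, minus strand: tgtTTTTAATAAAggccatggAATAAAgag
Lsm14b, chr2:180035429-180035458, plus strand: aaatgcaaactaAATAAAcattggactctt
Zar1, chr5:72577117-72577146, minus strand: ataaagcctgtgAATAAAaggtattgcaaa
Patl2, chr2:122120115-122120144, minus strand: ggccttgtatttAATAAAagtctaatctgg
Marf1, chr16:14109176-14109205, minus strand: caaacagttgtcAATAAActttatgagcaa

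Ybx2 and Lsm14a are shown because they were the 2 members, of 9 with at least 100 nucleotides of annotated 3′ UTR, that held the element in their last 100 nucleotides. That is 22.2% of the members, against 19.3% of 12313 tested genes and 17.9% of 19334 principal transcripts, searched on the message strand only. The poly(A) signal was in the windows of 8 of the 9 members, against 81.2% of tested genes. Lsm14b, Patl2 and Marf1 are shown because they had the smallest p-values below, and Zar1 because it had the highest level. The annotated 3′ UTR of Zar1l is 14 nucleotides long and was not searched. In the same search Ccnb1 and Mos, stored messages described below, had 0 elements in their last 100 nucleotides. The search covered these 2 forms of the element and this window only, so a message without a hit may still hold the element.

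The knockdown was visible in the libraries: Parp12 had 315.7 and 230.1 CPM (counts per 1000000 counts of the library) in the control libraries and 0.752 and 2.40 CPM in the knockdown libraries. Library totals ran from 35805122 to 45230773 counts, and 3 counts, the limit that a count of 0 allows, stood for 0.0663 to 0.0838 CPM. Markers of the oocyte (10 genes, among them Gdf9, Zp3 and Nobox) summed to 22226 and 22866 CPM in the controls. After knockdown they summed to 23530 and 23922 CPM, higher in both knockdowns. By edgeR, 2 of the 10 had an unadjusted p under 0.05. The share at that limit, in either direction, was 5.51% of all tested genes and 7.62% of those over 100 CPM. Granulosa markers summed to between 119.3 and 144.4 CPM, and 7 of the 14, among them Amh, Foxl2 and Inhba, had 0 counts in all 4 libraries. Nr5a2, also on this list, had a mean of 105 CPM over the 4 libraries and so made up most of the sum. Theca and stroma markers summed to between 2.40 and 6.45 CPM, with Col1a2 and Col3a1 at 0. Blood and endothelial markers summed to between 106.8 and 113.6 CPM. Of these 8 genes Cdh5 and Adgre1 were at 0, and only 3 had enough counts to be tested. Few genes thus made up that sum, which was not split by gene. Of the 4 tested granulosa markers 0 had an unadjusted p under 0.05 by edgeR. For theca and stroma it was 1 of 4 tested, and for blood and endothelium 0 of 3 tested. No marker was called by edgeR. In bulk RNA, fewer cells of a type and less RNA per cell cannot be told apart.

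No storage gene passed the test between knockdown and control oocytes. By edgeR's quasi-likelihood test with Benjamini-Hochberg adjustment over all genes at 0.05, 0 of the 10 members were called, where 0.0063% of all tested genes (Parp12 alone) were. The 10 genes together took 0.659% and 0.661% of all counts in the control libraries and 0.673% and 0.689% in the knockdown libraries. The summed oocyte markers above were also higher in both knockdowns, and their part in this share was not tested. Their median log2 fold change was 0.05, against 0.00 over all tested genes, with 6 members above 0 and 4 below, from -0.23 for Lsm14b to 0.26 for Patl2. The median was 0.0981 without knockdown replicate 1, 0.0880 without control replicate 2 and 0.0297 without knockdown replicate 2. For all 10 members the 95% interval lay within a 2-fold change up or down, and for all but Ddx6 within a 1.5-fold change. Among tested genes over 100 CPM, where 9 of the members lie, 99.96% of intervals excluded a 2-fold change and 97.8% a 1.5-fold change, so this precision is that of abundant genes in general.

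At an unadjusted p under 0.05, edgeR listed 1 member lower in the knockdowns (Lsm14b) and 2 higher (Patl2 and Marf1); without knockdown replicate 2 this count of 3 became 1. The share of all tested genes at that limit was 2.57% lower and 2.94% higher, and among genes over 100 CPM 4.7% lower and 2.93% higher. Both knockdown libraries lay above both controls for 5 members (Patl2, Marf1, Eif4enif1, Zar1 and Cpeb1), against 18% of tested genes and 17.3% of those over 100 CPM. They lay below both controls for 1 member (Lsm14b), against 16.8% and 21.3%. With 4 libraries the exact permutation p of any single gene (two-sided) is at least 0.333. DESeq2, run as an alternative, called 2 members (Lsm14b lower, Marf1 higher), against 1.86% of the genes with an adjusted p and 2.64% of those over 100 CPM. At an unadjusted p under 0.05, DESeq2 and limma-voom each listed 4 members. That limit held 17.3% and 10.8% of genes over 100 CPM in these fits, in either direction.

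**Figure D1:**
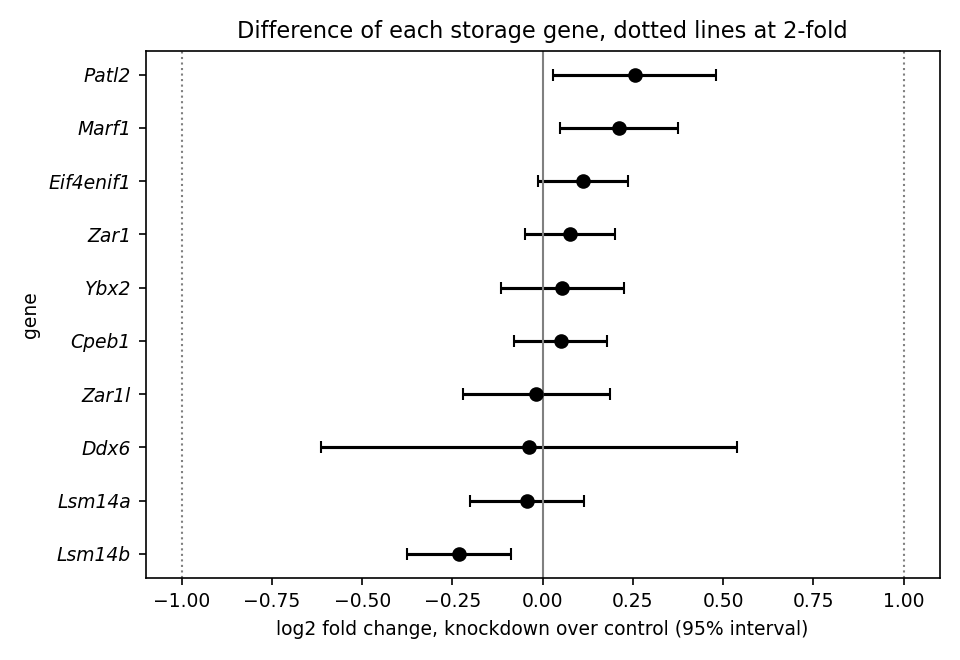
Log2 fold change of each of the 10 storage genes, knockdown over control, by edgeR (points) with its 95% interval (bars); the dotted lines mark a 2-fold change. The intervals of Patl2, Marf1 and Lsm14b lie to one side of 0 before adjustment for the number of genes tested, and that of Ddx6 is the widest.

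The storage genes spanned a wide range of abundance. Levels were compared per length, as CPM per kilobase of summed exons, over all 4 libraries. The SDs take controls and knockdowns together, so they include any difference between the groups and are not the spread between replicates. Zar1 was the highest at 443.8 ± 19.5 (SD, n = 4), 71st among all genes, and Zar1l followed at 429.1 ± 32.9; their ranges over libraries overlapped. Ybx2 had 325.9 ± 22.1, Cpeb1 260.3 ± 6.58 and Lsm14b 228 ± 21.9 CPM per kilobase. Eif4enif1 came next at 208 ± 10.1, and its range overlapped that of Lsm14b. Lower levels were those of Lsm14a at 81.1 ± 2.48, Patl2 at 64.5 ± 7.03 and Marf1 at 38.8 ± 3.43. Ddx6 was the lowest at 5.85 ± 1.70 CPM per kilobase, 1.32% of the level of Zar1 and 6264th among all genes. Apart from the 2 overlaps named, the ranges of neighbours in this order were separate.

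The levels and their order depend on the length taken. The summed exons of Zar1 hold 3465 nucleotides, because the annotation includes a transcript with a retained intron, while its principal transcript has 1429. Per kilobase of the principal transcript Zar1 was at 1076 CPM, and Zar1l was at 39.9% of it, with separate ranges. On that scale Zar1l (429.1), Ybx2 (367.2), Eif4enif1 (360.4) and Cpeb1 (350.8 CPM per kilobase) overlapped in turn, and Ddx6 remained the lowest at 7.76.

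**Figure D2:**
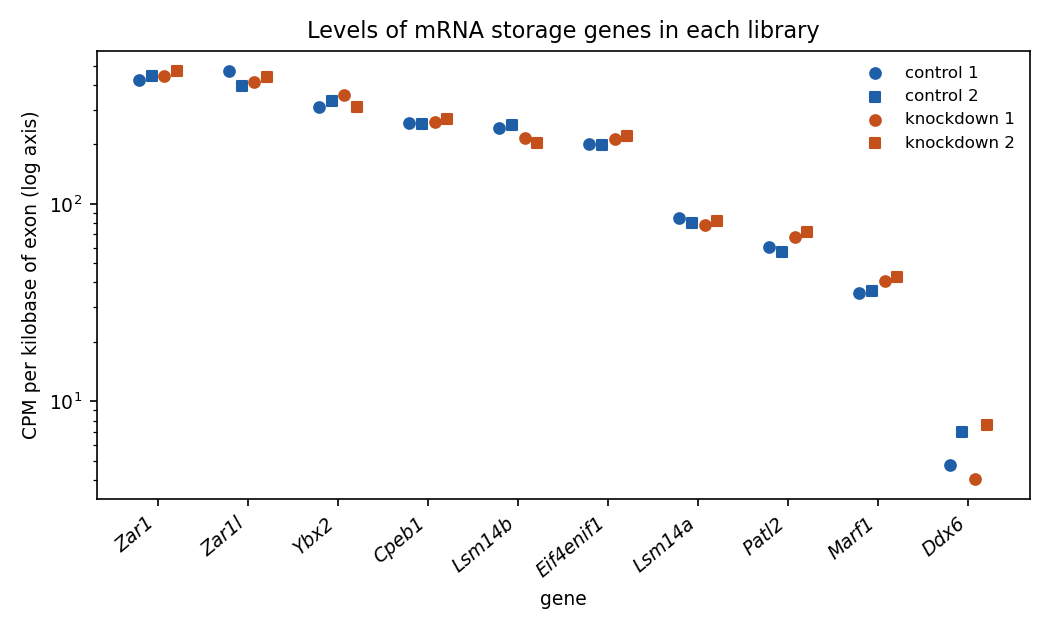
Level of each storage gene in each library, as CPM per kilobase of summed exons on a log axis, genes ordered by their mean; colours mark control and knockdown and symbols the replicate number. From Zar1 at 443.8 the levels step down to Marf1 at 38.8, and Ddx6 stands apart at 5.85, where replicate 1 is lower than replicate 2 in both groups.

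Among the messages for coat and scaffold proteins of the store, none were called by edgeR. The groups overlapped for Ybx2 and Zar1l, and both knockdowns lay above both controls for Zar1 and Cpeb1. Ybx2, the germ cell Y-box protein also called MSY2 that binds and stabilises maternal messages, spans chr11:69935796-69941605 on the plus strand of mm10. Its level was 583.2 and 622.6 CPM in the control libraries and 670.0 and 581.8 CPM in the knockdown libraries. The first knockdown library was the highest and the second the lowest, so the groups overlapped. edgeR estimated a log2 fold change of 0.05 (95% interval -0.11 to 0.22).

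Zar1 encodes a zinc finger RNA-binding protein, known in mice as a maternal effect factor whose loss stops the embryo soon after fertilisation. It lies at chr5:72576806-72581254 on the minus strand. Its level was 1462 and 1530.0 CPM in the control libraries and 1532 and 1627 CPM in the knockdown libraries. Both knockdown values were above both controls, by little: the second control and the first knockdown differed by less than the controls among themselves. The log2 fold change was 0.08 (-0.05 to 0.20), and the adjusted p from edgeR was 0.894. Of its 50-nucleotide stretches 22.8% also occur in other annotated genes, mainly Gm15847, which had between 9 and 88 counts against at least 58238 for Zar1.

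Zar1l, its paralogue, also known as Zar2 and partly redundant with it in mouse oocytes, lies at chr5:150507055-150518164 on the minus strand. Its level was 419.8 and 351.4 CPM in the control libraries and 371.1 and 393.9 CPM in the knockdown libraries. The controls enclosed both knockdowns. The estimate was -0.02 on the log2 scale (-0.22 to 0.19).

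Cpeb1, which reads the U-rich element and switches its targets from repression to polyadenylation, was the steadiest of the 10 genes. The gene spans chr7:81347026-81455465, minus strand. Its level was 1078 and 1065 CPM in the control libraries and 1093 and 1129 CPM in the knockdown libraries. Its SD between replicates was 0.0246 on the log2 scale, smaller than that of all but 14% of the 221 genes within 2-fold of its mean. The knockdowns were above the controls, with a log2 fold change of 0.05 (-0.08 to 0.18) and an adjusted p of 0.948 by edgeR.

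The repressor complex around DDX6 and 4E-T held the member with the smallest p-value. Lsm14b, the Lsm-domain protein of stored ribonucleoprotein particles needed for oocyte maturation in mice, lies at chr2:180024987-180035465 on the plus strand. Its level was 696.0 and 725.6 CPM in the control libraries and 620.6 and 590.1 CPM in the knockdown libraries. Both knockdowns were below both controls. edgeR estimated a log2 fold change of -0.23 (SE 0.07; 95% interval -0.38 to -0.09), a fold of 0.851 (0.770 to 0.941). The unadjusted p was 0.00409 and the adjusted p 0.835 by edgeR, so it was not called. DESeq2 gave an adjusted p of 0.00267, and over all alternatives the adjusted p ran from 0.00267 to 0.994. Its estimate stayed between -0.27 and -0.20 in every alternative, with each library left out in turn among them.

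Among 475 tested genes within 2-fold of its mean level, the nearest to Lsm14b in pattern over the 4 libraries were Klhdc3, Jade2 and Tmcc3. Their Euclidean distances from it were 0.0164, 0.0476 and 0.0659 on the log2 scale after centring each gene. Within a distance of 0.1 lay 9 of the 475 genes. None of the named genes was called by edgeR, each with an adjusted p of 0.835. Klhdc3, the closest, had 430.1 and 445.9 CPM in the control libraries and 386.1 and 361.7 CPM in the knockdown libraries.

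Lsm14a, the paralogue that is found in most cell types and joins P-bodies, lies at chr7:34344646-34393315 on the minus strand. Its level was 517.5 and 491.7 CPM in the control libraries and 481.6 and 500.7 CPM in the knockdown libraries, and the groups overlapped. The estimate was -0.04 on the log2 scale (-0.20 to 0.12). An antisense gene, Gm12764, shares 5.61% of its exon nucleotides but had 22 counts at most, against at least 17928 for Lsm14a.

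Eif4enif1 encodes 4E-T, which binds the cap-binding protein eIF4E and links it to DDX6 and LSM14. The gene spans chr11:3202392-3244588, plus strand. Its level was 1284 and 1261 CPM in the control libraries and 1353 and 1401 CPM in the knockdown libraries. The knockdowns lay above the controls, with a log2 fold change of 0.11 (-0.01 to 0.24) and an adjusted p of 0.835 by edgeR.

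Ddx6, the DEAD-box helicase of P-bodies and of repressed messages, had the lowest level and the largest spread. The gene lies at chr9:44604892-44640731 on the plus strand. Its level was 38.4 and 56.2 CPM in the control libraries and 32.6 and 60.9 CPM in the knockdown libraries. In each group the first library was low and the second high, and the knockdown values enclosed the controls. The SD between replicates was 0.522 on the log2 scale, larger than that of 99.3% of the 3738 genes within 2-fold of its mean, whose median was 0.165. The log2 fold change was -0.04, with an interval from -0.61 to 0.54. Of its 50-nucleotide stretches 4.49% also occur in Gm13410, which had 8 counts at most.

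Patl2, a paralogue of the decapping factor Pat1 that is typical of oocytes and, in humans, mutated in some women whose oocytes stop before maturity, had the largest estimate. It lies at chr2:122120108-122186189 on the minus strand. Its level was 146.5 and 139.3 CPM in the control libraries and 166.2 and 176.3 CPM in the knockdown libraries. Both knockdowns were above both controls. Its estimate of 0.26 on the log2 scale (SE 0.10, 95% interval 0.03 to 0.48) had an unadjusted p of 0.0294 and an adjusted p of 0.835 by edgeR. DESeq2 gave an adjusted p of 0.0706, and over all alternatives it ran from 0.0706 to 0.994.

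Marf1 encodes a ribonuclease required in mice for oocytes to resume meiosis and to hold down retrotransposon RNA; it degrades RNA where most of the other members protect it. The gene spans chr16:14109173-14163351, minus strand. Its level was 359.7 and 369.0 CPM in the control libraries and 413.3 and 432.3 CPM in the knockdown libraries, and the groups did not overlap. edgeR estimated a log2 fold change of 0.21 (SE 0.08; 95% interval 0.05 to 0.37), a fold of 1.16 (1.04 to 1.30). The unadjusted p was 0.0146 and the adjusted p 0.835 by edgeR, against 0.0148 by DESeq2; over all alternatives the adjusted p ran from 0.0148 to 0.994. An opposite-strand neighbour, Nde1, shares 0.76% of its exon nucleotides, with 506 to 1336 counts in all, and the strand setting of the counting is not given in the sources used.

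Ratios of related genes within a library do not depend on how the libraries are scaled, but their size depends on the gene lengths taken. On the scale of CPM per kilobase of summed exons, the ratio of Lsm14b to Lsm14a was 2.85 and 3.13 in the control libraries and 2.73 and 2.50 after knockdown. Per kilobase of the principal transcripts it was 1.56 and 1.71 in the controls, against 1.497 and 1.37 after knockdown. Zar1l and Zar1 had ratios of 1.11 and 0.889 in the control libraries and 0.938 in each knockdown library with summed exons. With principal transcripts Zar1l was below Zar1 throughout, at 0.458 and 0.367 of its level in the controls and 0.387 in each knockdown. The germ cell form Ybx2 exceeded the general form Ybx1 by 7.77 and 8.80 times in the control libraries and by 12.7 and 10.1 times in the knockdowns. Knockdown ratios were thus below both controls for the Lsm14 pair, mixed with them for the Zar1 pair and above them for the Y-box pair. In the Y-box pair edgeR's log2 fold change was 0.05 for the member Ybx2, whose groups overlapped, and -0.41 for Ybx1.

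Cpeb1 stood far above its paralogues: its ratio to the sum of Cpeb2, Cpeb3 and Cpeb4 was 28.8 and 30.1 in the controls, against 25.3 and 27.9 after knockdown. Both knockdown ratios lay below both controls. Patl2 exceeded Patl1, the general form, by 5.22 and 5.95 times in the control libraries and 5.66 and 6.15 times in the knockdown libraries, which overlapped. With principal transcripts the mean over the 4 libraries was 7.12 in place of 9.83 for Ybx2 to Ybx1, 27.1 in place of 28.0 for Cpeb1 and 5.65 in place of 5.75 for Patl2. These ratios were not tested, and those to Ybx1 are uncertain because 25.1% of its 50-nucleotide stretches also occur in other annotated genes, pseudogenes such as Ybx1-ps2 among them.

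**Figure D3:**
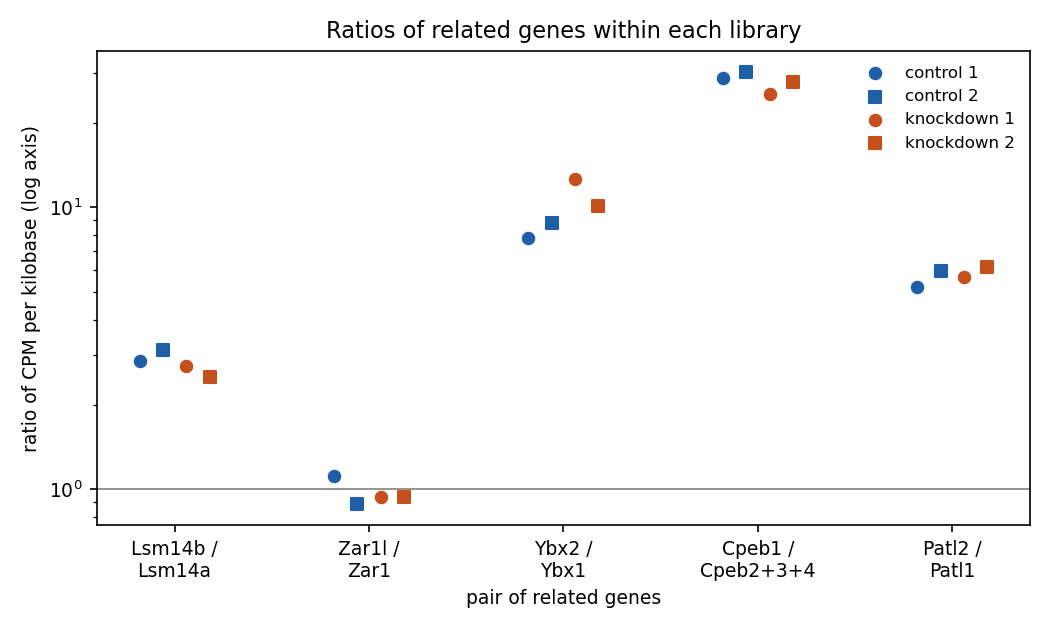
Ratio of CPM per kilobase of summed exons between related genes in each library, on a log axis; the line marks equal levels. With these lengths the points run from 2.50 (Lsm14b to Lsm14a) to 30.1 (Cpeb1 to Cpeb2, Cpeb3 and Cpeb4) and lie near 1 for Zar1l to Zar1; with principal transcripts the mean is 1.54 for the Lsm14 pair and 0.400 for the Zar1 pair.

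Other proteins of the store formed a list of 42 genes, such as eIF4E forms, poly(A)-binding proteins, Pumilio proteins and decapping factors, of which 40 were tested. None were called by edgeR. At an unadjusted p under 0.05, 2 of the 40 (5%) were lower and 0 higher, beside 2.57% and 2.94% of all tested genes and 4.7% and 2.93% of those over 100 CPM. The median log2 fold change was -0.01. The most abundant per length was Eif4e1b, the oocyte form of the cap-binding protein, at 1712 and 1751 CPM in the control libraries and 1688 and 1783 CPM in the knockdown libraries. Its log2 fold change was 0.00 (-0.12 to 0.12). Pabpn1l, a poly(A)-binding protein of the oocyte, and Ybx3, another Y-box protein, were next, with log2 fold changes of 0.01 (-0.16 to 0.19) and -0.08 (-0.22 to 0.06).

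The partners with the smallest p-values were Ybx1, Dcp1a and Stau1. Ybx1 had 100.7 and 95.02 CPM in the control libraries and 71.1 and 77.4 CPM in the knockdown libraries. Its log2 fold change was -0.41 (-0.70 to -0.11), and the adjusted p was 0.835 from edgeR and 0.0186 from DESeq2, which called this partner alone. Dcp1a, a decapping cofactor, had 398.3 and 335.4 CPM in the control libraries and 301 and 304.3 CPM in the knockdown libraries; its estimate was -0.28 on the log2 scale (-0.49 to -0.08), -0.14 without control replicate 1 and -0.41 without control replicate 2. Stau1, a protein that binds double-stranded RNA, had a log2 fold change of -0.17 (-0.33 to 0.00), and of -0.09 without knockdown replicate 1. The count of 2 partners at an unadjusted p under 0.05 became 0 without control replicate 1, 4 with the replicate block or limma-voom, and 5 with DESeq2. In these fits the share of genes over 100 CPM at that limit, in either direction, also moved: it was 7.62% at first, and then 5.85%, 8.53%, 10.8% and 17.3%. DESeq2's 5 partners were 12.2% of those with a p, below that last share.

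Messages known to be stored and translated later formed a list of 16 genes, all tested, of which Dcp1a, Dcp2 and Dazl are also partners. None were called by edgeR. Their median log2 fold change was -0.06, with 12 below 0 (75%, beside 54.5% of genes over 100 CPM, whose median was -0.01) and 4 above, and all 16 intervals excluded a 1.5-fold change. At an unadjusted p under 0.05, 4 were lower (Dcp1a, Mos, Bub1b and Btg4) and 0 higher, where 4.7% of genes over 100 CPM were lower. Both knockdowns lay below both controls for 7 of the 16, and above them for 0, beside 21.3% and 17.3% of genes over 100 CPM. At an unadjusted p under 0.05 the legacy edgeR fit listed 3 of the 16. The number was 5 without genes under 1 CPM, or with the replicate block, DESeq2 or limma-voom. In those 5 fits 6.92%, 8.32%, 8.53%, 17.3% and 10.8% of genes over 100 CPM were at that limit, in either direction. The count of 4 became 0 without knockdown replicate 1 and 1 without control replicate 1.

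Mos, the kinase that starts the MAP kinase cascade of maturation, had 417.2 and 444.1 CPM in the control libraries and 366.8 and 383.2 CPM in the knockdown libraries. Its log2 fold change was -0.20 (-0.37 to -0.04), and the adjusted p was 0.835 from edgeR and 0.0341 from DESeq2, which called this message alone. Bub1b, a kinase of the spindle checkpoint, had 1366 and 1247 CPM in the control libraries and 1144 and 1201 CPM in the knockdown libraries; its estimate was -0.16 on the log2 scale (-0.30 to -0.02), and -0.08 without control replicate 1. Btg4, an adaptor of the deadenylase complex, was named after its values were seen. It had 442.5 and 321.6 CPM in the control libraries and 321.5 and 309.4 CPM in the knockdown libraries, so the second control lay beside the first knockdown. Its estimate was -0.28, and -0.02 without control replicate 1 against -0.50 without control replicate 2. Ccnb1, cyclin B1, had a log2 fold change of 0.01 (-0.12 to 0.15), and 42.1% of its 50-nucleotide stretches also occur in other annotated genes such as Ccnb1-ps.

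**Figure D4:**
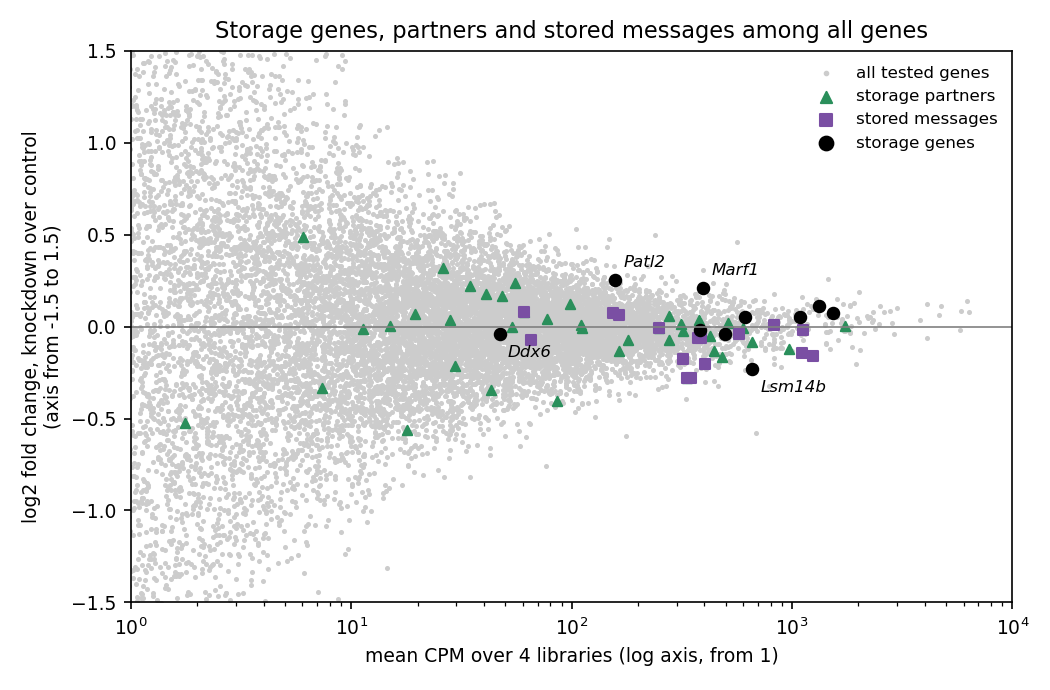
Log2 fold change against mean CPM (log axis) for all tested genes (grey), the 10 storage genes (black), their partners (green) and stored messages (purple); genes outside the axes, such as Parp12 and the partner Edc3, are not drawn. The storage genes lie within the cloud between -0.23 and 0.26, and 12 of the 16 stored messages lie below 0, beside 54.5% of genes over 100 CPM.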

How the data were processed

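The authors deposited raw counts per gene with summed exon lengths, in the layout of featureCounts, per the file headers. Per the submitters' processing notes, which give no roles, the build was mm10 and the tools were featureCounts 2.0.0, STAR 2.7.5b, DESeq2 1.28.1 and Trim Galore 0.6.4. RNA was selected by poly(A), per the labels' protocols, so levels are those of messages with a tail that the beads held; tail length was not measured. The strand setting and the handling of reads with several alignments are not stated there. Nothing says that replicates came from separate animals, so the spread behind each p-value may be technical.

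Counts were fitted in R 4.3.3 with edgeR 4.0.16 (filterByExpr, TMM, glmQLFit robust, glmQLFTest, group as the only term, two-sided) over all 15868 tested genes; tests were checked on simulated data. TMM factors lay between 0.991 and 1.01. Intervals use the SE from the F statistic. DESeq2 1.42.0, limma-voom (limma 3.58.1), other scalings and filters, a replicate block and leaving out each library were alternatives. CPM divide by library totals; floors take 3 counts and cover counting error only. Annotation is GENCODE M21, whose coordinates matched the table for all 10 members.

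The members and lists were chosen with earlier results of these data known. Named genes were all members, Parp12, the paralogues in ratios, the 3 most abundant and 3 smallest p-values of each other list, and the 3 genes nearest in pattern to the member with the smallest p; other names are examples of a list or share exons or sequence with a named gene. The length of the principal transcript, the members' median without Ddx6, and the counts and estimates of list genes under each alternative were added after the data were seen.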

Additional observations from a re-analysis of the deposited data

How the results depend on the processing

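The count of called genes was 1 in most alternatives, 8 when genes under 1 CPM were removed, 305 with DESeq2, 0 with limma-voom (747 at an unadjusted p under 0.05) and 1 to 2 with a library left out. DESeq2 called 2 members, 1 partner and 1 stored message, where the other alternatives with all 4 libraries called 0 of each. Among these, limma-voom did not call Parp12 either, so its 0 says little about the members and lists. The members at an unadjusted p under 0.05 numbered 1 to 3 with a library left out, the lowest without knockdown replicate 2, and the members' median log2 fold change ran from 0.0297 to 0.0981, against 0.05 with all. Of 130 single-gene estimates under alternatives, 122 kept their direction and side of the threshold and 6 changed direction, none of them called. With a library left out, Ybx2 ran from -0.0507 (without knockdown replicate 1) to 0.151, Ddx6 from -0.528 to 0.375, Lsm14a from -0.0901 to 0.00906 (without control replicate 1) and Zar1l from -0.150 to 0.132. Ddx6 was above 0 without control replicate 2 (0.240) or knockdown replicate 1 (0.375), and Zar1l without control replicate 1 (0.132) or knockdown replicate 1 (0.0280). The cause was not tested, and each of these settings has fewer libraries. Replicate numbers were not taken to pair the libraries in the main fit. Over tested genes the replicate differences of the groups had a correlation of 0.008. This covers genes of low count too, so it cannot decide whether the libraries were paired. The replicate block gave 1 called gene and a members' median of 0.05. In the fits that leave out a library, the other library of its group takes the spread of the intact group.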
